A study of Mus musculus with 21 samples.

Results

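Gene levels after 24 h of retinoic acid (RA) were compared with gene levels after 12 h of RA in mouse embryonic stem cells (ESCs), to describe which genes rose, held their level or fell between these times while RA was present. The comparison used 6 of the 21 libraries of the study, the 3 labelled RA_12h and the 3 labelled RA_24h, chosen by their labels. Of 32285 genes listed, 13948 had at least 1 TPM (a level scaled for transcript length and to the same total in each library) in at least 3 of the 15 time course libraries and were tested. The study sequenced polyadenylated RNA in 7 groups of 3 libraries. Wild type ESCs on gelatin, in serum with LIF, 1 µM PD0325901 and 3 µM CHIR99021 (the inhibitors together called 2i), gave the ESC_0h group. The groups noRA_12h and noRA_24h were wild type cells taken 12 h and 24 h after LIF and 2i were withdrawn, with no RA. RA_12h and RA_24h were wild type cells given 2 µM RA for 12 h and 24 h, and whether LIF and 2i were also withdrawn from them is not given in the labels. The other 6 libraries came from Cyp26a1 knockout ESCs and their wild type counterparts, without LIF and 2i and with 2 µM RA during 24 h, and no clone is named.

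RA is a vitamin A derivative that enters the nucleus and binds heterodimers of retinoic acid receptors (Rara, Rarb, Rarg) and retinoid X receptors, which sit on paired short DNA repeats and switch from repression to activation when RA binds. Direct targets include the Cyp26 enzymes that degrade RA, the receptor Rarb, and the 3′ members of the Hox clusters, homeodomain transcription factors that are opened from the 3′ to the 5′ end of a cluster and set position along the body axis. In ESCs, RA also drives exit from pluripotency, and in adherent culture a share of the cells can take on an extraembryonic (primitive) endoderm programme of Gata6, Gata4 and Sox17 and a laminin and collagen IV basement membrane.

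Depth in the 6 RA libraries was 3.32 to 3.81 aligned gigabases, and 12188 to 13482 genes per library had at least 1 TPM. RA_24h replicate 2 stood apart. On the first axis of differences within groups it lay at -51.6, against 16.9 and 29.5 for the other RA_24h libraries and 33.8 to 41.1 for RA_12h. Its genes with exons of 8000 bases or more stood higher, by 0.281 in the median of log2(TPM + 1) centred over libraries, than its genes under 2000 bases, where the other RA_24h libraries gave -0.157 and -0.325 and RA_12h gave -0.289 to -0.222. Pearson r within RA_24h was 0.958 to 0.994, and within RA_12h 0.995 to 0.996. Results that rest on that library are therefore given with and without it. The labels do not say that replicates were separate cultures, so p-values measure how far these libraries scatter, and that scatter may be technical. Whether a value listed as 0 is true absence or a failed estimate was not tested. The housekeeping gene Hprt was listed at only 0.433 TPM in RA_12h and 0.895 TPM in RA_24h, and the reason was not tested.

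Of the genes tested, 2487 (17.8%) rose and 2339 (16.8%) fell from 12 h to 24 h of RA, by limma on log2(TPM + 1) with a Benjamini-Hochberg adjusted p below 0.05. At a difference of at least 1 on this scale, called 2-fold here, 639 genes rose (4.58%) and 214 fell (1.53%). The 95% interval of the difference lay within ±0.5 for 5135 genes (36.8%), called held here, and 654 of these were also called higher or lower by small amounts. A further 4641 genes were neither called nor held, so their change is not resolved. The RA_12h and RA_24h libraries did not overlap for 4000 tested genes with RA_24h higher (28.7%) and 3105 with RA_24h lower (22.3%), the background for the statements on overlap below. The filter let in 353 genes only through the RA_24h libraries, 172 of which were called higher, and for such genes the rise is a description. Among genes described below they are Cyp26c1, Hoxb1, Hoxb3, Hoxa6, Hoxa11, Sox17, Foxq1, Foxa1, Foxa2, Dab2, Pdgfra, Dkk1, Nostrin and Runx1. Since the samples are bulk RNA, more cells of a type and more RNA per cell cannot be told apart in any of these changes.

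The 2-fold rises rested more on single libraries than the 2-fold falls. Without RA_24h replicate 2, 413 genes rose 2-fold, and without RA_24h replicate 3, 1136 did, while the 2-fold falls numbered 202 to 249 when each library in turn was left out. The calls of 417 of the 639 rises and 212 of the 214 falls passed without each of the 6 libraries. Median exonic length was 3392 bases for the 2-fold rises that passed in this way and 6245 bases for those that did not, against 4033 bases for all tested genes, and long genes were also the ones high in RA_24h replicate 2. The 639 rises of 2-fold were 400 with a covariate for the axis within groups, 661 after a correction for GC content and length, and 609 with library weights, which gave RA_24h replicate 2 a weight of 0.0835. Of all called genes, 51.5% were higher, a share that was 38.0% after quantile normalization and 64.0% after a correction for GC content and length, so neither direction is called the commoner. The median difference of all genes was 0.08, and -0.03 after quantile normalization.

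**Figure D1:**
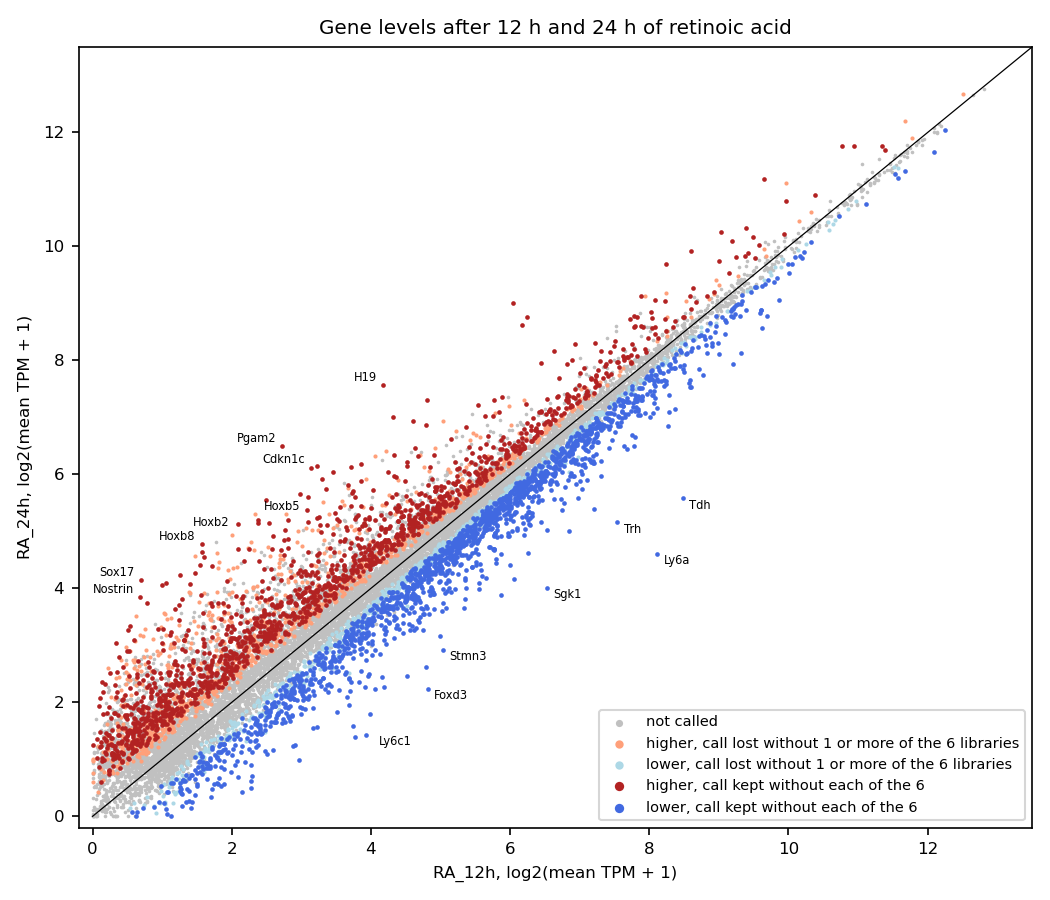
Mean level of each tested gene after 12 h (x axis) and 24 h (y axis) of RA, as log2(mean TPM + 1), with 3 libraries per group. Red points are genes that rose and blue points genes that fell, in lighter orange and blue where the call was lost without 1 or more of the 6 libraries. Pgam2, H19 and Sox17 lie far above the diagonal, and Ly6a, Tdh and Sgk1 far below it.

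The enzymes that degrade RA were higher at 24 h. Cyp26a1, the main RA hydroxylase of early embryos, stood at 122, 121 and 119 TPM in RA_12h and at 336, 281 and 324 TPM in RA_24h. The groups did not overlap, and the difference was 1.36 (SE 0.13, adjusted p = 5.62e-06). Cyp26b1, a second hydroxylase, stood at 3.26, 3.45 and 3.88 TPM and then at 21.5, 19.9 and 22.6 TPM, with every RA_24h library above every RA_12h library (2.30, SE 0.10, adjusted p = 8.72e-09). Cyp26c1, which lies beside Cyp26a1 on chromosome 19, went from 1.03, 1.46 and 0.984 TPM to 2.84, 1.88 and 2.88 TPM (0.70, SE 0.13). Cyp26a1 had already risen from a listed 0 TPM in the ESC_0h libraries, and in noRA_12h and noRA_24h its means were 0.472 and 0.750 TPM.

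Of the RA receptors, Rarg stood at 308, 317 and 310 TPM and then at 298, 260 and 306 TPM, a difference of -0.12 with its interval within ±0.5, and Rxrb held likewise (0.01). Rarb, the receptor whose own promoter carries an RA response element, rose from 2.02, 2.20 and 2.25 TPM to 4.94, 6.91 and 3.28 TPM (0.89, SE 0.17, adjusted p = 0.00159). Its 3 RA_24h libraries were all above RA_12h but spread more. Rxrg fell (-0.68). Rara rose little (49.6 to 60.9 TPM, 0.29, adjusted p = 0.0471), a call that passed without 2 of the 6 libraries, and for Rxra the difference was -0.36 (adjusted p = 0.0594, interval -0.66 to -0.06). Among proteins that carry, make or store retinoids, the binding protein Crabp2 (18.2 to 32.4 TPM, 0.79), the uptake receptor Stra6 (0.58) and the RA-synthesising dehydrogenase Aldh1a2 (1.05 to 3.09 TPM, 1.00) rose. Crabp1 (0.04) and Dhrs3, a retinaldehyde reductase induced early by RA (0.07), held. In all, 11 of the 21 tested genes of RA metabolism and reception rose, 2 fell and 7 held, with a median difference of 0.38.

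The promoters of Cyp26a1 and Rarb are shown because both genes have a DR5 site, the RA response element made of paired 6-base half-sites separated by 5 bases, within the RefSeq promoter window, which runs from 250 bases before to 50 after the start. Sequences are from RefSeq on GRCm38.p6, read 5′ to 3′ in the direction of the gene, with the half-sites in capitals.
Cyp26a1: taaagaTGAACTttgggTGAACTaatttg
Rarb: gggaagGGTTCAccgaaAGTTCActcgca
The first stretch is chr19:37697770-37697798, where the gene is on the plus strand and the repeat reads on the opposite strand, 32 to 16 bases before the start. The second is chr14:16575507-16575535, where gene and genome strand are minus and the repeat reads in the gene's direction, 53 to 37 bases before the start. A DR5 match on either strand was found in 31 of 27025 symbols with a window (0.115%), and in 7 of the 10613 tested genes with one (0.066%). Among the 459 genes with a window that rose 2-fold, 2 had a match (0.436%), Cyp26a1 and the chemokine gene Ppbp, and among 154 that fell 2-fold none did. The DR2 spacing, with 2 bases between half-sites, matched 0.311% of all windows and 13 of the 10613 tested genes with one (0.122%). It matched 1 of the 459 (0.218%, Crbn) and 2 of the 154 (1.3%, Ano1 and Tinagl1). These matches describe the letters of the windows and no binding was measured.

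Of 18 tested genes known to answer to RA outside the Hox clusters, 10 rose, 1 fell and 5 held (median 0.81, and 0.46 without RA_24h replicate 2). Stra8, the RA-induced gate to meiosis, stood at 292, 300 and 310 TPM and then at 798, 910 and 756 TPM (1.44, SE 0.11). Its groups were far apart. Zfp703, a zinc finger repressor, went from 11.1, 10.9 and 10.3 TPM to 46.4, 36.4 and 43.0 TPM (1.86). Btg2, an antiproliferative early response gene, fell from 21.4 to 12.5 TPM (-0.73). Tgm2, Nr6a1, Gbx2 and Egr1 held.

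In the Hoxb cluster (chromosome 11, 96194316 to 96368256, mm10), 9 of 10 genes rose and the exception was Hoxb13, the gene at the 5′ end, which lies apart from the others. The median difference was 2.62, the highest of the lists examined, and 2 of the 9, Hoxb1 and Hoxb3, passed the filter only through RA_24h. Hoxb1, the 3′ gene, stood at 0.457, 0.445 and 0.446 TPM in RA_12h and at 10.3, 8.39 and 8.50 TPM in RA_24h (2.79, SE 0.10). Hoxb2 went from 3.14, 3.15 and 3.48 TPM to 36.9, 25.8 and 39.4 TPM (3.02, SE 0.14). Hoxb1 thus stood below Hoxb2 at both times, and neither overlapped between times. Hoxb5 went from 4.64, 4.51 and 3.40 TPM to 38.1, 32.3 and 36.8 TPM (2.83, SE 0.11, adjusted p = 3.16e-09), and Hoxb1 and Hoxb5 were listed at 0 TPM in every ESC_0h and noRA library.

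The middle of the cluster moved as much as its 3′ end. Hoxb8 stood at 2.25, 1.62 and 2.02 TPM and then at 26.7, 25.6 and 27.1 TPM (3.22, SE 0.14, adjusted p = 6.80e-09), the largest difference among the Hox genes. Hoxb6 went from 2.54, 1.26 and 2.12 TPM to 26.3, 19.9 and 25.6 TPM (3.08, SE 0.15). In both genes the lowest RA_24h library was above every RA_12h library many times over. Hoxb3 (2.29), Hoxb7 (2.09) and Hoxb4 (1.77) rose by less on the log2 scale, and Hoxb4 and Hoxb7 were already at 4.50 to 5.44 and 3.84 to 5.05 TPM at 12 h.

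Hoxb9 was late. It stood at 3.36, 3.44 and 3.87 TPM in ESC_0h and at 3.69, 3.81 and 3.69 TPM in RA_12h, a difference of 0.06 (adjusted p = 0.733), and then at 27.0, 21.3 and 26.2 TPM in RA_24h (2.44, SE 0.13, adjusted p = 2.93e-08). Without RA it stood at 1.21, 1.84 and 1.85 TPM at 12 h, already below every RA_12h library. It then fell to 0.551, 0.775 and 0.527 TPM (-0.69). The difference between the changes was 3.14 (SE 0.18, adjusted p = 5.49e-07 by the limma contrast). Hoxb13 stood at 2.14, 2.12 and 2.70 TPM and then at 3.09, 1.21 and 2.28 TPM, with overlapping groups (-0.10, interval -0.53 to 0.33).

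In the Hoxa cluster on chromosome 6, 9 of 10 tested genes rose by smaller amounts (median 1.13), 2 of them, Hoxa6 and Hoxa11, let in only through RA_24h. Hoxa5 rose from 23.9, 25.4 and 24.4 TPM to 84.0, 73.6 and 78.9 TPM (1.64, SE 0.12), and Hoxa7 from 13.8, 16.0 and 16.2 TPM to 54.8, 47.3 and 54.5 TPM (1.70). The next genes in the 5′ direction, Hoxa9 (1.48 to 7.58 TPM, 1.80) and Hoxa10 (5.57 to 12.5 TPM, 1.04), rose too. Hoxa2 (0.53), Hoxa4 (0.89) and Hoxa3 (1.23) rose less than Hoxa5 to Hoxa9 in these estimates.

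In contrast, 8 of the 9 Hoxc genes and 1 of the 9 Hoxd genes were high enough to test. Hoxc4, at the 3′ end, rose (3.45 to 6.17 TPM, 0.68, adjusted p = 0.00484), and Hoxc12 fell (1.60 to 0.205 TPM, -1.11). Among the partners and upstream regulators of Hox proteins, Meis1 went from 7.04, 7.60 and 8.07 TPM to 25.9, 24.2 and 21.8 TPM (1.54, SE 0.13). Pbx3 (0.95) and Meis2 (0.60) rose as well, so 4 of 11 tested genes of that list rose and 1, Pknox1 (-0.32), fell. Cdx1, which activates Hox genes and is itself an RA target, kept its 12 h level of 104, 108 and 99.1 TPM (103, 84.0 and 104 TPM at 24 h).

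**Figure D2:**
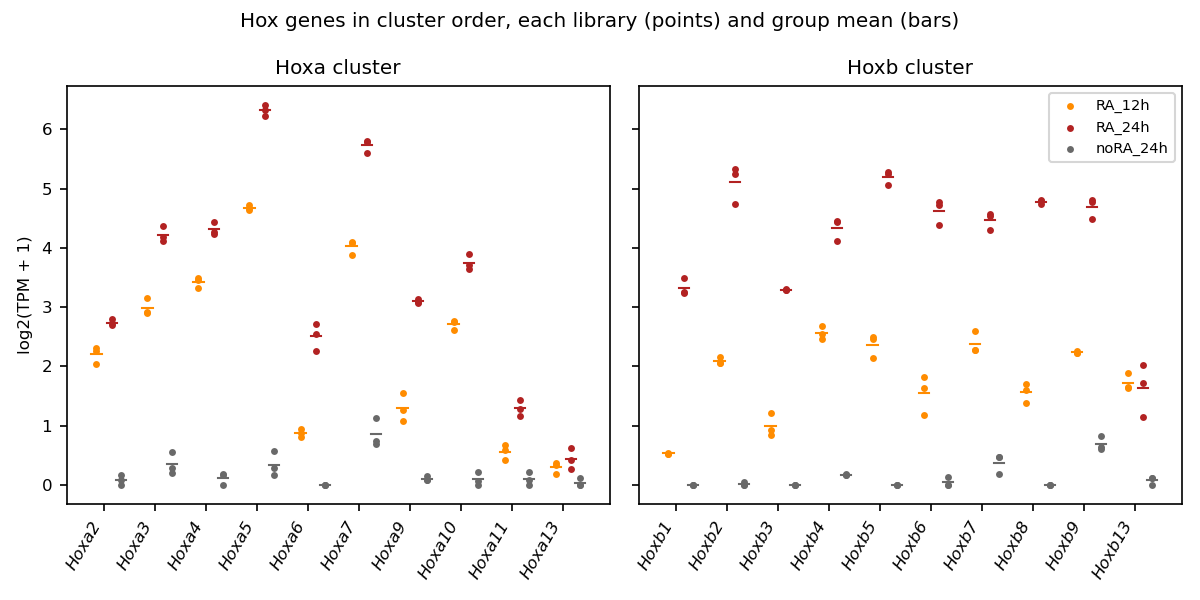
Level of Hoxa (left) and Hoxb (right) genes in every library of RA_12h, RA_24h and noRA_24h, as log2(TPM + 1), in paralog order from the 3′ to the 5′ end. Each point is 1 library. The RA_24h points stand above the RA_12h points for Hoxb1 to Hoxb9 and for Hoxa5 and Hoxa7, and for Hoxb13 they overlap.

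Of 16 tested endoderm transcription factors, 9 rose, none fell and 7 were not called, 3 of which held (median 0.90). Of the 9, Sox17, Foxa1, Foxa2 and Foxq1 passed the filter only through RA_24h. The list's summed level went from 67.2 to 72.0 TPM in the RA_12h libraries to 164 to 191 TPM in the RA_24h libraries. Sox17 stood at 0.0925, 1.26 and 0.504 TPM in RA_12h and at 17.9, 13.8 and 18.3 TPM in RA_24h (3.50, SE 0.26). Gata4 went from 1.16, 0.622 and 1.21 TPM to 17.6, 13.9 and 15.7 TPM (3.08, SE 0.16, adjusted p = 1.94e-08). Both were thus near the limit of 1 TPM at 12 h and clear of it in every library at 24 h. In noRA_24h, Sox17 stood at 0.115 to 0.186 TPM and Gata4 at 0.257 to 0.336 TPM.

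Gata6, which acts upstream of Gata4 and Sox17 in primitive endoderm, was ahead of them. It stood at 16.9, 16.8 and 20.1 TPM at 12 h and at 71.1, 59.7 and 63.0 TPM at 24 h (1.79, SE 0.14). Foxq1, a forkhead factor, went from 0.182, 0.218 and 0.382 TPM to 8.04, 6.5 and 7.17 TPM (2.71, SE 0.11). Groups did not overlap for either gene. Sox7 (1.92), Foxa1 (1.42) and Foxa2 (1.63, to 2.05 to 3.29 TPM) also rose, and Hnf4a rose little (1.34 to 2.05 TPM, 0.38, adjusted p = 0.0227). Hhex, Foxa3 and Prdm1 held, and for Eomes, a mesendoderm factor, the difference was -0.27 (adjusted p = 0.0873).

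The extracellular matrix that primitive endoderm lays down split in direction. Of 16 tested basement membrane genes, 9 rose, 2 fell and 6 held, and their summed level overlapped between times (1398 to 1445 TPM in RA_12h and 1356 to 1479 TPM in RA_24h). Lama1, the laminin chain of the earliest basement membrane, stood at 7.07, 7.62 and 8.05 TPM and then at 37.1, 35.1 and 32.3 TPM (2.06, SE 0.10), still below its ESC_0h mean of 72.6 TPM. Lamb1 went from 11.4, 11.4 and 12.5 TPM to 58.3, 57.4 and 49.6 TPM (2.13), and the third chain, Lamc1, from 124 to 168 TPM (0.43). Collagen IV rose less, with Col4a1 at 0.24 and Col4a2 at 0.51, while the collagen prolyl hydroxylase P4ha2 rose from 12.4 to 51.5 TPM (1.97). Plod2, a collagen lysyl hydroxylase, reached 137 TPM in RA_24h replicate 2, against 67.5 and 56.0 TPM in the others, and its difference was 1.72 with and 1.34 without that library (adjusted p = 0.00186 without).

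Nid1 and Sparc, which bind laminin and collagen, went the other way. Nid1 stood at 107, 109 and 112 TPM and then at 59, 53.6 and 48.5 TPM (-1.02), and Sparc at 387, 392 and 386 TPM and then at 200, 157 and 192 TPM (-1.09). Both also fell without RA (-1.18 and -1.05). Of 16 tested genes of endocytic uptake and endoderm surface, 8 rose and 4 fell, or 7 and 5 without RA_24h replicate 2, and 4 of the 8 passed the filter only through RA_24h, Dab2 and Pdgfra among them. The clathrin adaptor Dab2 (0.550 to 4.42 TPM, 1.80), the receptor Pdgfra (0.447, 0.662 and 0.409 TPM, then 6.80, 10.6 and 5.17 TPM, 2.45) and the proteoglycan Srgn (6.01 to 28.2 TPM, 2.07) rose, and Trf, transferrin (32.4 to 14.2 TPM, -1.14), and Apoe (-0.50) fell. The receptor Lrp2 rose (0.90, adjusted p = 0.0240) on the strength of RA_24h replicate 2, where it stood at 16.6 TPM, and without that library its adjusted p was 0.0952.

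**Figure D3:**
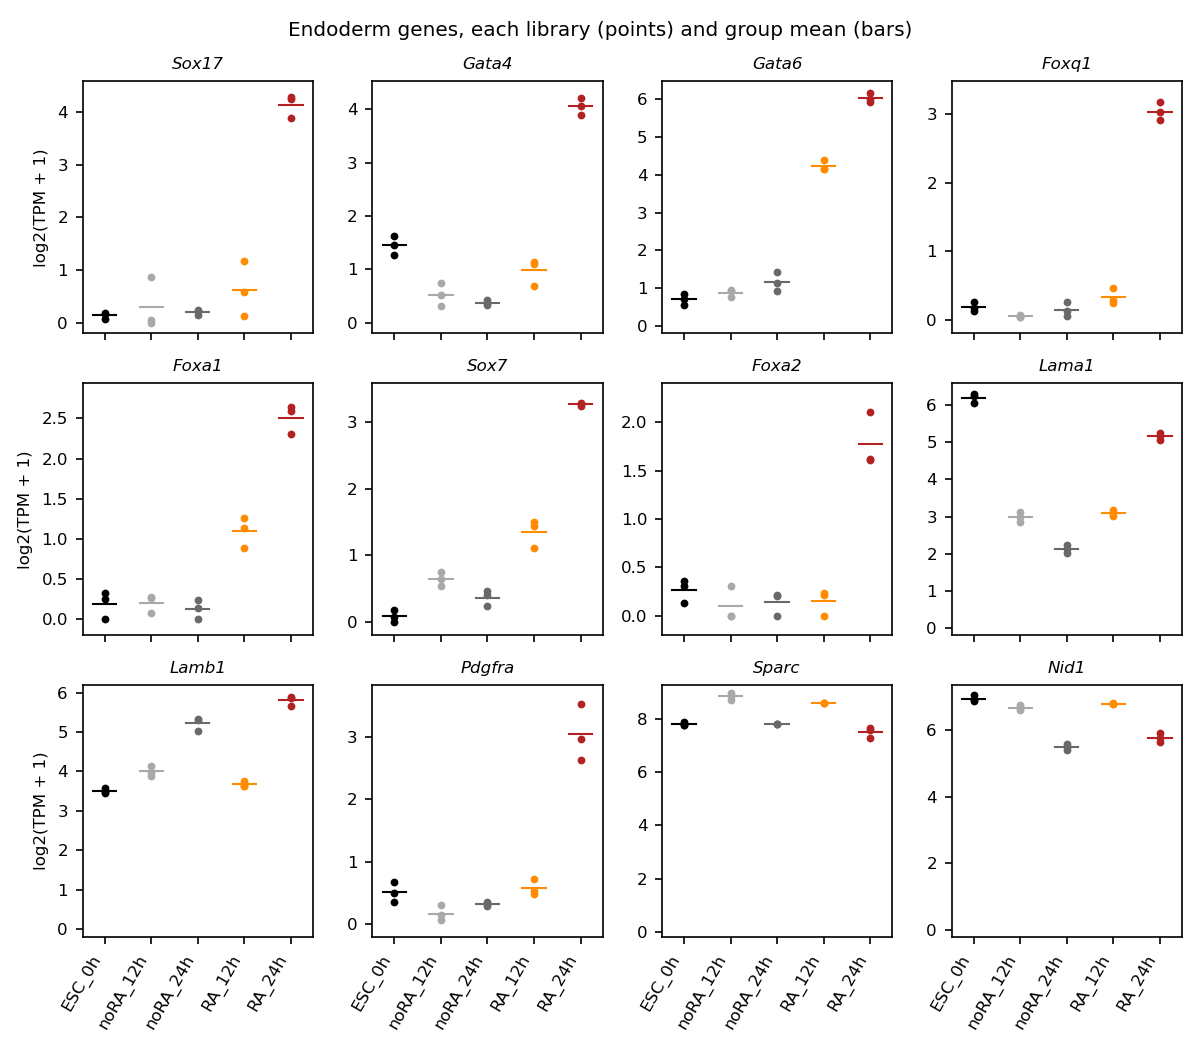
Level of 12 endoderm and basement membrane genes in each of the 5 time course groups, as log2(TPM + 1), with 1 point per library and a bar at the group mean. Sox17, Gata4, Foxq1 and Foxa2 leave the baseline in RA_24h, Gata6 is already high in RA_12h, and Sparc and Nid1 are lower in RA_24h than in RA_12h.

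Among the other genes with the highest differences, Pgam2, the muscle form of the glycolytic enzyme phosphoglycerate mutase, led. It stood at 6.6, 6.0 and 4.23 TPM and then at 90.7, 78.8 and 98.8 TPM (3.79, SE 0.25, adjusted p = 2.38e-07). H19, an imprinted noncoding RNA, went from 19.5, 14.6 and 17.2 TPM to 186, 151 and 229 TPM (3.38, SE 0.14). Cdkn1c, an imprinted inhibitor of cyclin-dependent kinases, went from 7.81, 7.90 and 7.80 TPM to 70.9, 56.0 and 78.7 TPM (2.96, SE 0.14). None of the 3 overlapped between times. Arg1, arginase, rose from 1.77 to 18.2 TPM (2.79), and the vasodilator peptide gene Adm from 1.08 to 16.1 TPM (3.04). Nostrin, which binds nitric oxide synthase, stood at 8.47, 24.2 and 7.53 TPM in RA_24h, highest in RA_24h replicate 2, and its difference was 2.99 with and 2.50 without that library.

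The lowest differences included Tdh and Foxd3, genes known from undifferentiated ESCs, but the lowest of all was Ly6a. Ly6a, a surface protein, stood at 286, 277 and 266 TPM and then at 24.4, 20.9 and 24.7 TPM (-3.51, SE 0.08, adjusted p = 2.25e-11 by limma). Tdh, threonine dehydrogenase, through which mouse ESCs draw on threonine, went from 355, 362 and 351 TPM to 47.4, 39.9 and 53.0 TPM (-2.91, SE 0.08). Foxd3, a forkhead factor of pluripotent and neural crest cells, went from 26.4, 28.7 and 26.4 TPM to 3.58, 3.6 and 4.02 TPM (-2.57, SE 0.10). In these genes every RA_24h library was far below every RA_12h library. Sgk1, a serum and glucocorticoid induced kinase, fell from 91.5, 88.9 and 95.2 TPM to 14.4, 14.7 and 16.2 TPM (-2.53, SE 0.06), and the hormone precursor Trh from 189, 186 and 181 TPM to 35.5, 28.5 and 40.2 TPM (-2.40). Ly6c1 (-2.56), the eye homeobox gene Vax2 (-2.41), Cpsf4l (-2.20), Krtdap (-2.19), the chloride channel Ano1 (-2.14) and Stmn3 (-2.12) completed the list with Prdm14 (-2.05).

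Naive pluripotency genes fell in RA, 12 of 16 tested with 1 higher and 2 held (median -0.85). Nanog stood at 582, 594 and 594 TPM and then at 248, 257 and 232 TPM (-1.26, SE 0.07), and Prdm14, which maintains the naive state, at 21, 21.3 and 23.3 TPM and then at 4.48, 4.24 and 4.80 TPM. Klf2 went from 122, 128 and 124 TPM to 49.8, 40.3 and 51.6 TPM (-1.39). No groups overlapped in these genes. Esrrb (306 to 115 TPM, -1.41), Tfcp2l1 (-1.06) and Nr5a2 (-1.57) fell too. Klf5 was the member that rose (133 to 163 TPM, 0.28), and Tbx3 fell by 0.42 on the log2 scale, from 136 to 102 TPM. Of 14 general pluripotency genes, 10 fell and 1, the Nodal co-receptor Tdgf1 (382 to 557 TPM, 0.54), rose. Pou5f1 (Oct4) remained abundant, at 3100, 3001 and 3001 TPM and then at 2380, 2124 and 2586 TPM (-0.36), and Sox2 went from 190 to 147 TPM (-0.37).

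Genes that had climbed by 12 h of RA and then held are the other side of the time course. The climb is counted from ESC_0h cells in LIF and 2i, so it does not measure RA alone. The 8 with the largest rise from ESC_0h to RA_12h and a held level afterwards were Cgnl1, Dusp6, Fbp1, Lgals9, Myrf, Basp1, Spry4 and Zfp423. Cgnl1, a junction protein, stood at 49.0, 42.8 and 45.7 TPM at 12 h and at 47.3, 48.3 and 34.6 TPM at 24 h (-0.09), against a mean of 0.652 TPM in ESC_0h. Basp1, a membrane protein, stood at 204, 197 and 204 TPM and then at 209, 179 and 215 TPM (-0.01, interval -0.21 to 0.20). Fbp1, a gluconeogenic enzyme, stood at 40.7, 38.5 and 38.4 TPM and then at 39.5, 33.7 and 41.3 TPM (-0.04, interval -0.40 to 0.31). In these genes the RA_12h and RA_24h libraries overlapped. Dusp6 and Spry4, feedback inhibitors of ERK signalling, differed by 0.24 and 0.13. The summed level of the ERK feedback and response list was 475 to 508 TPM in ESC_0h. It was 895 to 954 TPM in noRA_12h and 1019 to 1044 TPM in RA_12h, so most of that climb was also seen without RA. Myrf held within ±0.5 and yet was called lower (-0.29, adjusted p = 0.0259). Of 17 tested ERK feedback and target genes, 8 held, 4 rose, among them the early response gene Ier3 (9.24 to 52.3 TPM, 2.38), and 4 fell, among them Etv5 (228 to 140 TPM, -0.70).

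To see how far these changes also took place without RA, the change from noRA_12h to noRA_24h was tested in the same model, where 2380 genes rose (17.1%) and 3148 fell (22.6%). LIF and 2i were withdrawn from the noRA cells, and the labels do not say whether they were from the RA cells. Effects of RA and of LIF and 2i therefore cannot be told apart in any difference between the conditions. Of the 639 genes that rose 2-fold in RA, 303 (47.4%) also rose without RA and 7 fell. Of the 214 that fell 2-fold in RA, 184 (86.0%) also fell without RA and 3 rose. The median differences of the 2-fold rises were 1.40 in RA and 0.98 without, and those of the 2-fold falls -1.20 and -0.92. The change in RA was higher than the change without it for 581 genes (4.17%) and lower for 374 (2.68%). Without RA_24h replicate 2 these counts were 1075 and 545. The noRA libraries also scattered, with noRA_12h at -31.8 to 43.5 on the first axis of differences within groups. The level of long over short genes, measured as above, was 0.276, -0.240 and -0.032 in noRA_12h and 0.189 to 0.209 in noRA_24h. The part of this scatter in the comparison was not tested beyond the alternatives given in the closing section.

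The changes of Pgam2, Sox17, Hoxb8, Gata4, Hoxb9 and Hoxb2 differed most between the conditions in the upward direction, with changes in RA minus changes without of 3.84, 3.60, 3.45, 3.23, 3.14 and 3.07. In the Hoxb cluster 9 genes, and in the Hoxa cluster all 10 tested, were among the 581, as were 9 of the 16 endoderm factors and 8 of the 16 basement membrane genes. Lama1, for example, fell without RA, from 7.76, 6.28 and 6.97 TPM to 3.37, 3.68 and 3.05 TPM (-0.87), while it rose in RA, and the changes differed by 2.93 (SE 0.14). H19 rose in both conditions and more so in RA (3.38 against 1.08). Cdkn1c rose by 2.96 in RA and 2.31 without, a difference of 0.65 that did not pass (adjusted p = 0.0739). Adm rose more without RA, by 4.56 to 25.8, 27.6 and 29.4 TPM.

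Among the genes that fell, Ly6a took the same course with and without RA. Without RA it went from 363, 377 and 387 TPM to 28.2, 33.5 and 34.7 TPM (-3.51), and the changes differed by 0.00 (SE 0.12). The naive list as a whole had medians of -0.85 in RA and -0.82 without RA, with 12 genes lower in each. Its members did not share 1 course. Nanog fell by -1.29 without RA, where the difference between the changes was 0.02 (SE 0.10). Nr0b1, an orphan receptor, fell in RA from 134, 139 and 138 TPM to 63.8, 51.4 and 61.4 TPM (-1.21) but stayed at 164, 212 and 200 TPM and then 171, 181 and 176 TPM without it, and the changes differed by -1.09 (SE 0.14). Tbx3 did the reverse, going from 93.5, 98.6 and 97.0 TPM to 21.2, 20.0 and 19.6 TPM without RA (-2.19), and the difference was 1.78 (SE 0.09).

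Sgk1 and Foxd3 fell more in RA than without it. Without it Sgk1 went from 199, 189 and 201 TPM to 157, 169 and 161 TPM (-0.28), so that the changes differed by -2.26 (SE 0.08, adjusted p = 7.37e-09). Foxd3 stood at 42.8, 54.1 and 47.3 TPM and then at 40.0, 34.9 and 32.7 TPM (-0.41), and the changes differed by -2.16 (SE 0.15). At 24 h neither gene overlapped between the conditions.

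Genes of formative and primed pluripotency, the state ESCs pass through on the way to the epiblast lineages, separated the conditions further. Of 18 tested, 16 rose without RA (median 1.09), while in RA 7 rose, 1 fell and 8 held (median 0.19), and for 12 the change was lower in RA. Otx2, which directs the formative state, stood at 16.6, 19.9 and 16.3 TPM and then at 15.2, 15.5 and 13.4 TPM in RA (-0.24, held), against 94.3, 80.7 and 85.7 TPM and then 167, 174 and 162 TPM without it. Fgf5, the epiblast marker, did not exceed a mean of 0.212 TPM in RA, and went from 0.482, 0.694 and 1.27 TPM to 13.6, 15.0 and 12.5 TPM without it, so that the changes differed by -2.88 (SE 0.20). Enpp2, the lysophospholipase autotaxin, and Vrtn, a factor tied to vertebral number, differed similarly (-2.93 and -2.91). Psors1c2 fell in RA (25 to 10.2 TPM, -1.22) and rose without it (0.84). Car4, a carbonic anhydrase, rose in both (2.52 and 2.41), and Lef1 (1.51 and 2.91) and Pou3f1 (1.06 and 2.09) rose in both and less in RA.

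**Figure D4:**
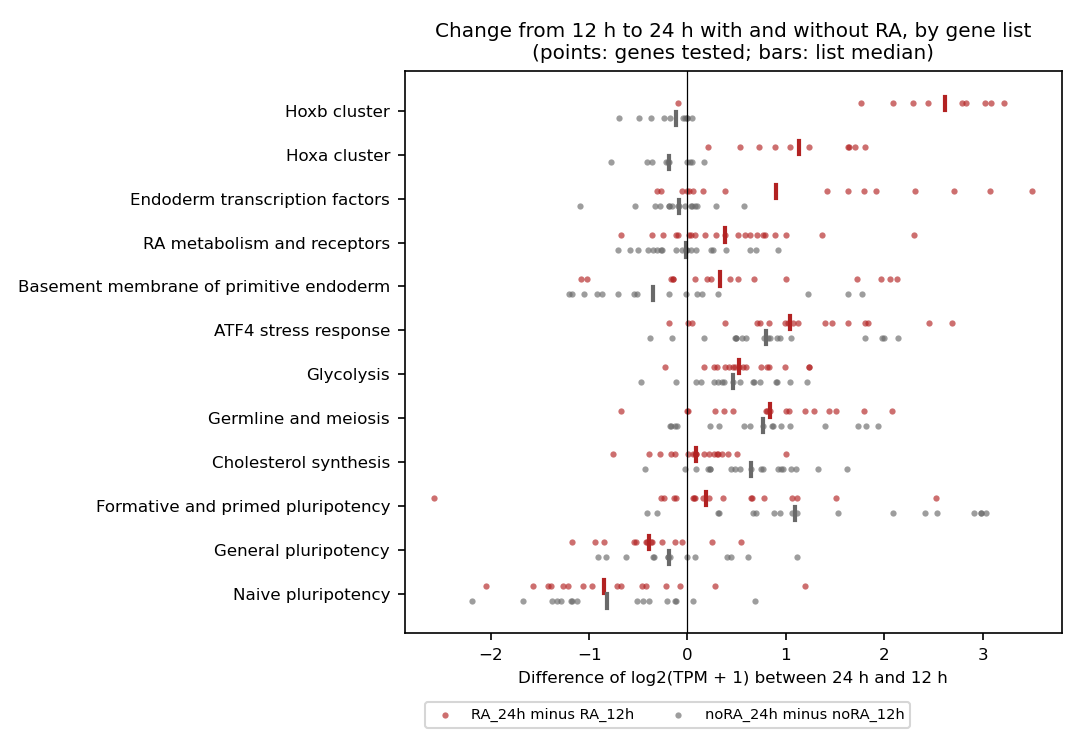
Change from 12 h to 24 h on the log2(TPM + 1) scale for the tested genes of 12 lists, in RA (red) and without RA (grey), with 1 point per gene and a bar at the list median. The red and grey medians part for the Hoxb (2.62 and -0.11), Hoxa (1.13 and -0.19), endoderm factor (0.90 and -0.09) and formative (0.19 and 1.09) lists and lie close for naive pluripotency and glycolysis.

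Glycolysis genes rose both with and without RA. Of 17 tested glycolysis genes, 16 rose and 1 fell in RA (median 0.52), and 13 rose without RA (median 0.47). Ldha, which turns pyruvate into lactate, stood at 1777, 1709 and 1769 TPM and then at 3545, 3200.0 and 3735 TPM (0.99, SE 0.07). Tpi1 (520 to 1227 TPM, 1.23), the lactate exporter Slc16a3 (56.6 to 135 TPM, 1.24) and the glucose transporter Slc2a1 (512 to 861 TPM, 0.74) rose as well, and Hk1 fell (-0.23). The change differed between the conditions for 1 of these genes, the transporter Slc2a3 (0.58).

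Of 18 tested genes of the ATF4 pathway, which answers to amino acid shortage and unfolded proteins, 14 rose, none fell and 3 held in RA (median 1.05), and 14 rose without RA (median 0.80). Ddit3, the transcription factor CHOP, went from 16.9, 20.6 and 19.6 TPM to 128, 132 and 124 TPM in RA (2.69, SE 0.08) and from 9.90, 10.9 and 11.8 TPM to 46.0, 43.6 and 47.8 TPM without RA, and the changes differed by 0.71 (SE 0.12, adjusted p = 0.00248). Ddit4, an inhibitor of mTORC1 (70.7 to 395 TPM, 2.46), Atf5 (1.63) and Atf4 itself (261 to 428 TPM, 0.71) rose, while Asns, asparagine synthetase, held (602 and 605 TPM). Cholesterol synthesis behaved differently. Of 19 tested genes, 14 rose without RA (median 0.64), and in RA 3 rose, 3 fell and 10 held (median 0.09). The change was lower in RA for 7 of them.

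Signalling genes changed in both directions within each pathway, as did tested genes in general, of which 17.8% rose and 16.8% fell. The pathway counts here and in the next paragraph are a description and were not tested against those shares. Fgfr2, the FGF receptor of primitive endoderm and epithelia, went from 1.47, 1.49 and 1.34 TPM to 11.9, 14.7 and 12.4 TPM in RA (2.52, SE 0.11), and its change exceeded that without RA by 2.36. Fgfr3 rose (1.25 to 3.92 TPM, 1.13), Fgfr4 (-0.88) and the ligand gene Fgf4 (-0.41) fell, and Fgfr1 held. Among 16 tested WNT pathway genes 4 rose and 6 fell. Secreted WNT inhibitors were found on both sides: Dkk1 went from 0.231, 0.178 and 0 TPM to 3.64, 4.13 and 4.20 TPM (2.14) and Sfrp5 rose from 6.2 to 20.4 TPM (1.56), while Notum fell from 57.8, 59.5 and 54.8 TPM to 14.6, 10.8 and 15.8 TPM (-2.0) and Sfrp1 fell (-0.78).

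In the Nodal pathway 5 of 10 tested genes rose and 3 fell. The feedback inhibitor Lefty1 stood at 20.0, 19.2 and 18.2 TPM and then at 84.2, 68.4 and 88.1 TPM (2.00, SE 0.14) and Lefty2 rose (1.01), while Nodal itself fell from 101 to 55.7 TPM (-0.87). Of 12 BMP pathway genes 3 rose and 5 fell. The ligand genes Bmp6 (1.45 to 6.62 TPM, 1.64) and Bmp4 (34.5 to 14.3 TPM, -1.22) moved in opposite directions, and Id2, a BMP target, rose (12.1 to 42.4 TPM, 1.72).

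Markers of other lineages moved in both directions, and some rested on 1 library. Of all tested genes, 17.8% rose and 16.8% fell. Of 22 streak and mesoderm genes 11 could be tested. Of these 6 fell, among them Brachyury, T (3.74 to 1.28 TPM, -1.06), and Kdr (6.4 to 1.36 TPM, -1.64), and 1 rose, while 4 fell and 2 rose without RA_24h replicate 2. Their summed level was 44.5 to 48.9 TPM in RA_12h and 37.3 to 42.2 TPM in RA_24h. Of 30 neural genes 11 could be tested, 4 rose, among them Sox1 (3.15 to 5.20 TPM, 0.57), and 2 fell, among them Nes (-0.67), or 2 each way without RA_24h replicate 2, and their sums overlapped between times (74.2 to 78.8 and 64.0 to 78.3 TPM). Of 15 trophoblast and simple epithelium genes 5 rose and 6 fell. Krt19 went from 9.75, 9.86 and 8.30 TPM to 33.4, 27.6 and 39.6 TPM (1.74) and Krt8 (1.11) and Krt18 (1.07) rose, while the trophoblast factors Tead4 (-1.19) and Gata3 (-0.75) fell and Cdx2 held. The trophoblast sums also overlapped (325 to 345 and 305 to 359 TPM).

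Of 17 tested germline and meiosis genes 12 rose and 1, Dppa3, fell, but the rises leaned on RA_24h replicate 2. Without that library 9 rose, and the median went from 0.84 to 0.49. Dazl, an RNA-binding protein of germ cells, stood at 7.06, 5.30 and 5.60 TPM in RA_12h and at 19.3, 71.7 and 16.1 TPM in RA_24h (2.08), and the difference was 1.43 without that library. Ddx4 stood at 4.14, 13.4 and 3.27 TPM in RA_24h (1.20, adjusted p = 0.0451), and lost its call without it (adjusted p = 0.180). Mael (28.4 to 59.5 TPM, 1.04) and Stra8 did not depend on it, and 10 of the 17 also rose without RA. The transferrin receptor Tfrc, used as a housekeeping gene, showed the same library standing out (4.38, 23.3 and 2.91 TPM), and its difference of 1.90 was 1.09 without it and not called (adjusted p = 0.124).

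Few markers of other cell types that a culture could hold were high enough to test. Of 6 tested fibroblast markers 1 rose, Col1a1 (0.56, not called without RA_24h replicate 2, adjusted p = 0.0602), and 1 fell, Thy1 (-0.78). Of 4 tested blood and endothelial markers 1 rose, Runx1, and 1 fell, Pecam1, from 117, 115 and 118 TPM to 101, 107 and 91.3 TPM (-0.23, adjusted p = 0.0107). Fibroblast markers summed to 11.2 to 16.6 TPM in RA_12h and 13.1 to 16.0 TPM in RA_24h, with Lum and Fap listed at 0 in RA_12h. Blood and endothelial markers summed to 241 to 253 TPM and 241 to 256 TPM, most of it Cd68 and Pecam1. Both sets of sums overlapped between times. The late yolk sac endoderm genes Afp, Ttr, Apoa1 and Apob were at or near 0 and were not tested.

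The knockout set shows how the genes that moved between 12 h and 24 h stood when the RA-degrading enzyme was removed. Cyp26a1 stood at 585, 606 and 592 TPM in the wild type libraries of that set and at 4.62, 4.03 and 4.93 TPM in the knockout libraries, low as the labels have it. In its own model, 429 of 12848 genes were higher in the knockout (3.34%) and 855 were lower (6.65%). No library is shared with the time course. Of the 639 genes that rose 2-fold from 12 h to 24 h, 575 were tested there, and 162 (28.2%) were lower in the knockout and 4 (0.696%) higher, with a median difference of -0.23 against -0.05 for all 12112 matched genes. The 162 made up 20.0% of all matched genes lower in the knockout. Of 180 tested genes that fell 2-fold, 75 (41.7%) were higher in the knockout and 4 lower (2.22%), with a median of 0.41, and they made up 18.7% of all that were higher.

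These counts moved with single libraries of the set. When each was left out, 82 to 282 of the 575 were lower in the knockout and 38 to 99 of the 180 higher, the highest values without knockout replicate 3. The median of the 575 ran from -0.50 without that library to -0.11 without knockout replicate 1. The share of all lower genes that the rises made up was 13.8% without knockout replicate 3 and 43.6% without wild type replicate 3, and the share of all higher genes that the falls made up was 10.4% without knockout replicate 3 and 35.1% without wild type replicate 1. Of the 363 tested rises whose time course call passed without each library, 160 (44.1%) were lower in the knockout, or 81 (22.3%) without wild type replicate 3 and 220 (60.6%) without knockout replicate 3. The list counts here and in the next paragraph are from the fit of all libraries of the set and were not recounted without single libraries. The endoderm factors were prominent, 9 of 14 tested being lower in the knockout and none higher. Gata4 differed by -1.64 (adjusted p = 0.000600), Sox7 by -1.61, Foxq1 by -1.58, Gata6 by -1.09 and Sox17 by -0.80. Dab2 (-1.99), Srgn (-1.91) and Lama1 (-1.32) were lower too. Of the Hoxb genes 7 of 10 were lower, by -0.46 (Hoxb2) to -0.87 (Hoxb1), and Hoxb8 (-0.31, adjusted p = 0.0679) was not called. Of the Hoxa genes 1 of 10, Hoxa5, was lower (-0.22).

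Genes that fell from 12 h to 24 h stood higher in the knockout in part. Ly6c1 (3.02), Ly6a (2.06), Foxd3 (1.39), Nanog (1.32), Nr0b1 (1.31) and Prdm14 (1.27) were higher, and 6 of the 16 naive pluripotency genes were higher and none lower. Sgk1 (0.08), Trh (-0.02) and Stmn3 (-0.11), which fell at least as steeply with time as Prdm14, were not called. H19, among the highest rises with time, differed by 0.11 (adjusted p = 0.437). Cyp26b1 was lower in the knockout (-1.08), and Cdx1 was higher (0.51).

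**Figure D5:**
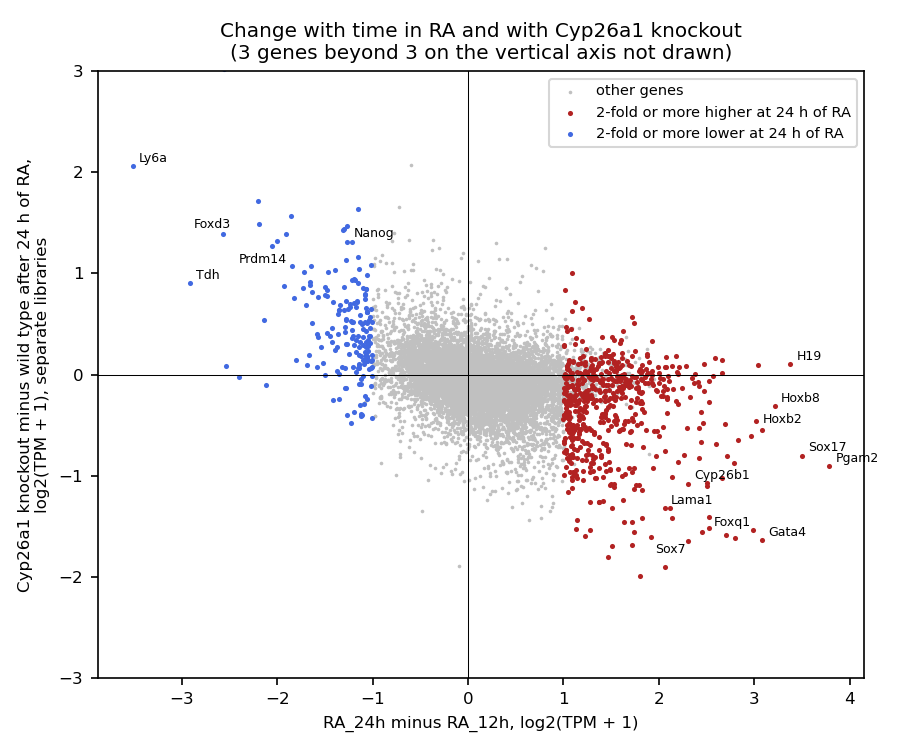
Change from 12 h to 24 h of RA in wild type cells (x axis) against knockout minus wild type after 24 h of RA (y axis), both on the log2(TPM + 1) scale, with 1 point per matched gene and 3 genes beyond 3 on the knockout axis not drawn. Gata4, Sox7 and Foxq1 lie at the lower right and Ly6a and Nanog at the upper left, while H19 lies near 0 on the knockout axis.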

How the data were processed

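Polyadenylated RNA of mouse ESCs was isolated with Trizol for paired-end sequencing, per the labels. The submitters' processing notes name the build mm10 and the tools HISAT2 (an aligner) and StringTie (which estimates levels), with versions, parameters and strand setting not given in the sources used here. Each of the deposited tables gives coverage (signal, mean read depth per base), FPKM (scaled by the authors for length and library size) and TPM (scaled by the authors to the same sum in each library), per the file headers. They hold no counts, so depth in aligned gigabases was read from the commonest quotient of coverage and FPKM. Reads of overlapping, antisense or near-identical genes may be shared out wrongly.

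TPM values were tested as log2(TPM + 1), with a filter of at least 1 TPM in at least 3 libraries, by limma 3.58.1 in R 4.3.3 with the variance trend over levels. The 15 time course libraries entered 1 model, and the 6 Cyp26a1 set libraries, which use another annotation and scale, a second, so levels were not compared between the sets. All differences are on that log2 scale, which understates changes of low genes. A gene was called at a Benjamini-Hochberg adjusted p below 0.05 over all genes tested, and held where the 95% interval lay within ±0.5. The difference between changes is the contrast of the RA change with the change without RA. GENCODE M21, which holds 32158 of the 32285 identifiers, gave exonic length and GC content, and RefSeq gave the promoter windows.

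The 32 gene lists and the members named were chosen with earlier results of these data known, and lists are described by counts and medians only. Named genes were the 12 highest and 12 lowest called differences whose calls passed without each of the 6 libraries and whose groups did not overlap, the 8 held genes with the largest earlier rise, the 6 highest and 6 lowest differences between changes, up to 4 called members per list, all Hox genes, and Sox17, Gata4 and Cyp26a1. A few of the genes so chosen are not reported here. Other list members are named to show members that held or moved the other way. The scripts were tested on simulated data. Alternatives were FPKM in place of TPM, quantile normalization, scaling by the median of ratios, a filter on the mean (5 TPM or more) or none, a pseudocount of 0.1, no trend, library weights, replicate number as a block, only the groups compared, a covariate for the axis within groups, a correction for GC content and length with splines of 4 degrees of freedom, an interval within ±0.3, and leaving out each library in turn. Tables were handled in Python 3.11.15 with pandas 2.3.3 and numpy 2.4.6, and drawn with matplotlib 3.10.9.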

Additional observations from a re-analysis of the deposited data

Results flagged for a closer look

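For 28 named genes the change from 12 h to 24 h in RA differed from the change over the same hours without RA, by the limma contrast of the changes at an adjusted p below 0.05. Over all tested genes this contrast was higher for 4.17% and lower for 2.68%. All but Cyp26a1 of the 28 were chosen for their change in RA or for this contrast, so their number is a description. The values are log2 differences, the change in RA minus the change without RA, with 3 libraries in each of the 4 groups.

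Among Hox genes and the RA hydroxylase the values were 3.45 for Hoxb8, 3.14 for Hoxb9, 3.07 for Hoxb2, 3.03 for Hoxb6, 2.83 for Hoxb5 and 1.1 for Cyp26a1. Among endoderm genes and the other high rises they were 3.84 for Pgam2, 3.6 for Sox17, 3.23 for Gata4, 2.78 for Nostrin, 2.47 for Arg1 and 2.30 for H19. Adm, which rose in both conditions, gave -1.52. Among the genes that fell in RA the values were -2.26 for Sgk1, -2.16 for Foxd3, -1.61 for Tdh, -1.21 for Ano1, -1.06 for Vax2, -0.876 for Prdm14 and -0.765 for Trh, while Krtdap, which fell more without RA, gave 1.01. Among genes that held in RA they were -2.0 for Lgals9, -0.774 for Myrf and -0.598 for Cgnl1. Lgals9, a galectin, went from 2.77, 3.30 and 3.41 TPM to 18, 17.8 and 16.8 TPM without RA, and so rose towards the 40.6 to 49.9 TPM of RA_24h. Among the genes chosen for their lower change in RA they were -2.93 for Enpp2, -2.91 for Vrtn, -2.88 for Fgf5 and -2.06 for Psors1c2.

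The last group, and Hoxb9, Hoxb2, Hoxb8, Gata4, Sox17 and Pgam2, were named because of this contrast, so their values are a description. The others, except Cyp26a1, were named for a high, low or held change in RA. That change is part of this contrast, so their values are a description too. Sox17 and Nostrin passed the filter only through the RA_24h libraries. No group of samples here has more than 3 libraries, so single libraries were not tested as outliers.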

How the results depend on the processing

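The alternatives were run on the counts of calls and on 46 results for named genes (36 where the mean had to reach 5 TPM), and none of the 46 changed direction. The calls among the 46 kept their side of the threshold. The genes with the highest and lowest differences had been chosen because their calls passed without each of the RA libraries compared. Their passing in those fits was therefore fixed by the choice and is not a test. These genes, and those with the highest and lowest differences between changes, were also chosen for the size of their difference. Their results therefore do not show how a typical called gene would fare under the alternatives. Some held genes were no longer within ±0.5. These were Myrf and Zfp423 with median-of-ratios scaling and with quantile normalization, Fbp1 with median-of-ratios scaling, Lgals9 with quantile normalization, Fbp1, Lgals9 and Myrf with the pseudocount of 0.1, Myrf with FPKM, Lgals9 with the axis covariate and with the block, and Dusp6 and Lgals9 after the GC and length correction (0.36 each). Of single libraries left out, 7 did this for Lgals9, 5 for Myrf and 1, RA_24h replicate 3, for Fbp1. The 2487 higher genes were 5626 with library weights, 1562 with a mean of at least 5 TPM, 1637 after quantile normalization and 639 at 2-fold, and 1741 to 3065 without each library in turn. The 2339 lower genes were 3856 with weights, 214 at 2-fold, and 1846 to 2444 without each library. The 639 rises of 2-fold were 391 with FPKM, 400 with the axis covariate, 373 with the mean of at least 5 TPM, 1149 with a pseudocount of 0.1, and 413 to 1136 without each library. The 214 falls were 388 with that pseudocount, 406 after quantile normalization, and 202 to 249 without each library. The 5135 held genes were 8098 with weights, 12684 with no filter, 1722 with an interval within ±0.3, and 4382 to 5275 without each library. The 581 genes with a higher change in RA were 4474 with weights, 1742 with the axis covariate, 383 with the mean of at least 5 TPM, 365 with median-of-ratios scaling, 279 after quantile normalization, and 384 to 1075 without each library. The 374 with a lower change were 3179 with weights, 1190 with the covariate, and 264 to 545 without each library. Weights gave 1 library of noRA_12h a weight of 70.7 and RA_24h replicate 2 one of 0.0835. In the knockout set the 429 higher and 855 lower genes were 116 and 198 without wild type replicate 3 and 1000 and 2156 without knockout replicate 3, which were the lowest and highest values over its 6 libraries. The cause of these shifts was not tested, except that the stricter filter, the 2-fold rule and the interval within ±0.3 pass fewer genes by construction. Genes near 0 TPM, which enter with no filter, can differ little on the log2(TPM + 1) scale. The pseudocount of 0.1 widens the differences of low genes.

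With replicate number as a block, 2059 genes rose and 2101 fell, 430 and 284 differed between changes, 4868 held, and 396 were higher and 766 lower in the knockout. The deviations of RA_12h and RA_24h libraries of the same number correlated at -0.018, -0.202 and -0.207. Those of different numbers correlated at -0.134 to 0.203. The first axis held 67.2% of the variance within groups, so these values largely follow where each library lay on it. They cannot show whether the numbers pair the samples. The overlap counts with the knockout for calls that passed without each library, and the list counts without RA_24h replicate 2, were added after the data were seen. With 3 libraries per group and at most 3.81 gigabases each, the 4641 genes that were neither called nor held are those for which the data resolve no change and no constancy.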

Other observations

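Several imprinted genes besides H19 and Cdkn1c were higher after 24 h than after 12 h of RA. They were looked up after the values of H19 and Cdkn1c had been seen, so they are a description and no list was tested. On distal chromosome 7, where H19 and Cdkn1c lie, Igf2, a growth factor gene beside H19, went from 0.462 to 2.46 TPM (1.24, SE 0.14), Ascl2, a trophoblast factor, from 2.02 to 8.96 TPM (1.73, SE 0.14), and Phlda2, a brake on placental growth, from 17.9 to 27.7 TPM (0.61, SE 0.15). Elsewhere, Dlk1, a Notch-related membrane protein, went from 5.55 to 24.4 TPM (1.94, SE 0.24), Peg10, a retrotransposon-derived gene, from 85.9 to 247 TPM (1.49, SE 0.16), Mest from 49.0 to 129 TPM (1.37, SE 0.07) and Grb10, an adaptor of growth factor receptors, from 10.7 to 27.3 TPM (1.24, SE 0.16). These 7 were called at an adjusted p below 0.05 by limma without each of the 6 libraries. Without RA, Igf2 changed by 0.01 and Phlda2 by -0.28, and the change in RA was higher for Igf2 (1.23), Dlk1 (1.60), Peg10 (0.88), Phlda2 (0.89) and Mest (0.57). Other imprinted genes were not called in RA, among them Meg3 (0.29), Rian (-0.38) and Snrpn (0.08). The Cd81 gene, also on distal chromosome 7, fell (-0.66). Overlapping and antisense transcripts are common at imprinted loci, and the strand of these levels is not stated.

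Growth control and adhesion genes were mixed, where 17.8% of all tested genes rose and 16.8% fell. Of 21 tested cell cycle genes 5 rose and 9 fell, or 6 and 5 without RA_24h replicate 2. Mycn, which drives growth in ESCs, went from 21.1, 21.4 and 25.3 TPM to 9.71, 7.67 and 8.70 TPM in RA (-1.28, SE 0.09), and its change was lower than that without RA by -1.55. Ccne2, a cyclin of S phase entry, stood at 2.16, 10.8 and 2.32 TPM in RA_24h, highest in RA_24h replicate 2, and its difference of 1.72 was 1.09 without that library and not called (adjusted p = 0.0664). Of 12 tested genes of cadherins and epithelial to mesenchymal transition, 2 rose, 3 fell and 7 were not called (median 0.21). Without RA_24h replicate 2, 3 rose and 2 fell. Cdh1, E-cadherin, fell from 238 to 165 TPM (-0.53) and Cdh3, P-cadherin, from 14.7 to 4.66 TPM (-1.48). Of 14 tested Notch pathway genes 3 rose, among them the ligand gene Dll1 (0.579 to 2.71 TPM, 1.24), 2 fell, among them the receptor gene Notch4 (17.6 to 7.12 TPM, -1.21), and 7 held. Runx1, a factor of blood and epithelia, went from 0.260 to 3.26 TPM (1.76), and passed the filter only through the RA_24h libraries.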
